A study of Mus musculus with 435 samples.

Results

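Gstm3 and Gsta3 encode cytosolic glutathione transferases of the mu and the alpha class. Their probes were found by symbol in the probe-to-gene table of the array, which gave 1 probe for each gene, 2 of the 14711 probes that carry 1 symbol. The array has 17280 probe rows and 13409 genes with a symbol. The pair was selected on earlier results of these same arrays, in which Gstm3 differed by diet in C57 livers. The diet values of both genes in C57 are therefore given as a description with no test, and the tests of other contrasts are no independent support for the choice.

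Glutathione transferases join the tripeptide glutathione to reactive electrophiles, which makes them less harmful and easier to export from the cell. The liver is rich in these enzymes, and many of their genes are known targets of the transcription factor NRF2 and of the xenobiotic receptors CAR and PXR. Mouse Gsta3 is known for its high activity towards the epoxide of aflatoxin B1, and mouse Gstm3 is known as an NRF2-responsive gene of liver.

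Liver RNA was profiled in 2 inbred mouse strains, C57 and AJ, each fed high-fat or low-fat, at week 0, week 1 and weeks 3 to 11, with 435 arrays in 44 groups of 8 to 10 arrays. The groups in use here are C57 high-fat, C57 low-fat, AJ high-fat and AJ low-fat livers. The labels used here give neither the composition of the diets nor the age of the mice, nor do they say what distinguishes the diets at week 0 or whether arrays share a mouse, so the spread between arrays may be partly technical. Liver RNA carried Cy5 on every array, and Cy3 marked a pool of RNA from 10 C57 tissues that includes liver itself. All values below are log2 ratios of liver over that pool, centred on the median of each array, so 0 is the array's middle probe and not equal expression. A level of one gene cannot be set against a level of the other on this scale.

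Week 8 was left out because 28 of its arrays had a correlation below 0.15 with the typical profile, the probe-wise median over arrays, and 4 arrays of other weeks were left out for the same reason. Identical columns were found for 2 pairs of AJ high-fat arrays, each counted once, which left 350 arrays in 36 groups over 9 weeks, and 39 arrays at week 0. Arrays measured between 194 and 14929 probes, with a median of 5007 at week 0 and of 11235 later. The signal behind each ratio is unknown. Averaged over the 9 weeks, all 12 measured hepatocyte markers of a list of 15 were above 0 in each strain and diet. Their medians were 0.93 in C57 high-fat, 0.94 in C57 low-fat, 1.12 in AJ high-fat and 1.09 in AJ low-fat livers. In weeks 9 to 11 of AJ high-fat livers 10 were above and 2 below 0. All 4 measured skeletal muscle markers and both measured kidney markers were below 0 in each strain and diet. The few measured brain, cholangiocyte, leukocyte and endothelial markers lay on both sides of 0 in most sets. In whole liver, fewer cells of a type and less RNA per cell cannot be told apart.

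Gstm3 (Entrez gene 14864, probe 9405) lies on the minus strand of chromosome 3 at positions 107963696 to 107969174 of the mouse assembly GRCm38.p6, and Gsta3 (Entrez gene 14859, probe 11895) on the plus strand of chromosome 1 at 21240565 to 21265575. The build the array was designed on is not given in the sources used here. Probe sequences were not used, so which exon or untranslated part each probe covers is not known, and hybridisation of near-identical transferases to these spots was not tested. The windows just upstream of the annotated gene starts are shown because the levels of the genes moved together across arrays. They come from RefSeq on GRCm38.p6, written 5′ to 3′ on the strand of the gene, and capitals mark motif matches:

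Gstm3, chr3:107969175-107969424, minus strand: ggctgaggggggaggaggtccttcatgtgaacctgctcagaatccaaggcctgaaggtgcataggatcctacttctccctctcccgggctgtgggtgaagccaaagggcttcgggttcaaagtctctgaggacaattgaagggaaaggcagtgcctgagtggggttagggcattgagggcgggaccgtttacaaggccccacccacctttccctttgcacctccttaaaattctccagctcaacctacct

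Gsta3, chr1:21240335-21240564, plus strand: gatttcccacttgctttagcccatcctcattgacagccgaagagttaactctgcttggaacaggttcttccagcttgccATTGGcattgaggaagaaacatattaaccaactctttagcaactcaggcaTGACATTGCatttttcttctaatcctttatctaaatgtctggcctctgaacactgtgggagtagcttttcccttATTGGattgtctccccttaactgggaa

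Both strands were searched for the antioxidant response element core TGACNNNGC, the dioxin response core GCGTG, the CCAAT box CCAAT and the TATA box TATAAA. The Gsta3 window of 230 bases held TGACATTGC on the strand of the gene, starting at position -101 from the gene start, and the CCAAT box on the other strand, printed as ATTGG, at positions -151 and -27. The Gstm3 window of 250 bases held none of the 4 motifs. Of 32851 mouse promoter windows of 230 bases, 9.19% held the antioxidant response element core and 32.2% the CCAAT box. A match is a match of letters and not a shown binding site.

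Gstm3 lay above the array median in all 4 strain and diet sets. Its mean over the 9 weeks was 0.52 ± 0.43 in C57 high-fat and 0.94 ± 0.24 in C57 low-fat livers, and 0.40 ± 0.23 in AJ high-fat and 0.65 ± 0.21 in AJ low-fat livers (SD of 9 weekly means). From the highest, the order was C57 low-fat, AJ low-fat, C57 high-fat, AJ high-fat. C57 low-fat and AJ low-fat did not differ past the threshold of an adjusted p of 0.05, nor did C57 high-fat and AJ high-fat, as given below. AJ low-fat and C57 high-fat, next to each other in that order, differ by less than the SD of either. The probe was measured on 319 of the 350 arrays.

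In C57 high-fat livers the weekly mean of Gstm3 was -0.18 at week 1, 0.19 at week 3, 0.11 at week 4, 0.50 at week 5, 0.97 at week 6, 0.61 at week 7, 0.47 at week 9, 1.17 at week 10 and 0.81 at week 11. In C57 low-fat livers it was 0.59, 0.58, 0.85, 0.88, 1.00, 1.19, 1.15, 0.97 and 1.22 at the same weeks. The high-fat mean was the lower in each of these weeks except week 10. In AJ high-fat livers the weekly means were 0.07, 0.50, 0.02, 0.24, 0.60, 0.50, 0.64, 0.50 and 0.54, and in AJ low-fat livers 0.32, 0.96, 0.50, 0.45, 0.65, 0.61, 0.78, 0.84 and 0.78. The AJ high-fat mean was the lower in 9 of 9 weeks. Single arrays spread widely around these means, with SDs within a group between 0.20 and 1.03.

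**Figure D1:**
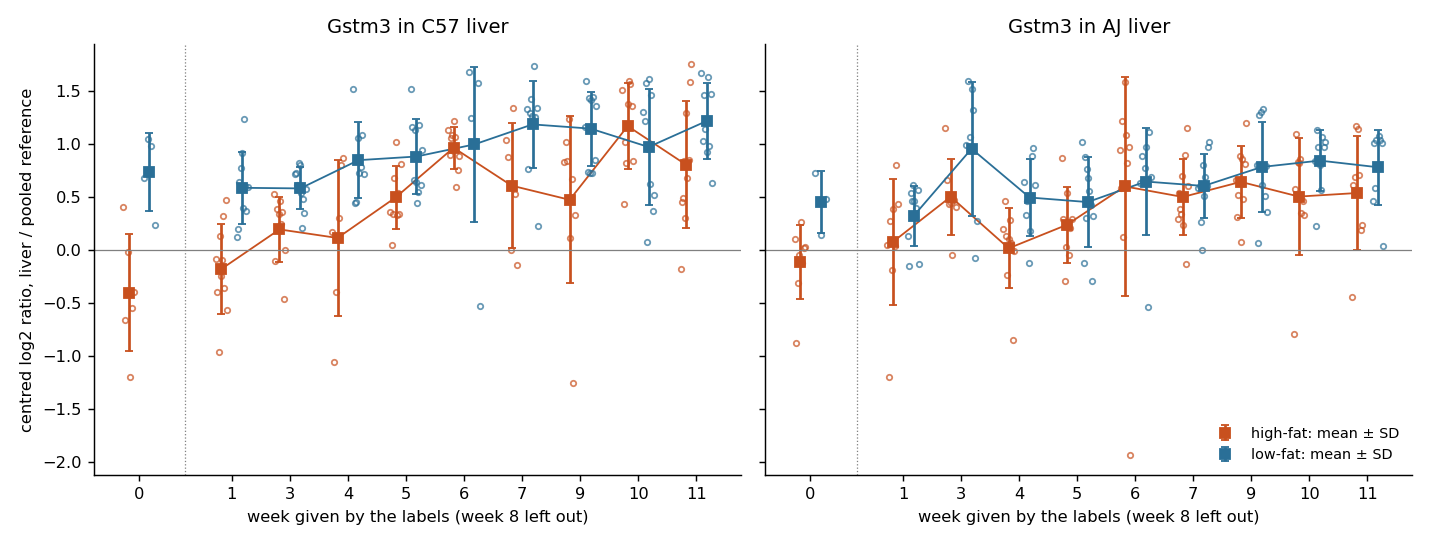
Gstm3 in C57 (left) and AJ livers (right) by week, with high-fat left of low-fat at each week. Open circles are single arrays, squares and bars are the group mean ± SD of the centred log2 ratio, and week 0 stands apart to the left of the dotted line. The C57 high-fat mean climbs to 1.17 at week 10 and is below the low-fat mean in 8 of 9 later weeks.

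Among the 9 weeks after week 0, the diet gap in C57 was widest at week 1. There Gstm3 had a lowest value of -0.97, a median of -0.17 and a highest of 0.47 on 10 high-fat arrays, against 0.13, 0.60 and 1.24 on 10 low-fat arrays. Of the 10 high-fat arrays, 7 were below every low-fat array. At week 10, where the sign turned, the lowest, median and highest were 0.43, 1.36 and 1.59 on 9 high-fat arrays, against 0.08, 1.09 and 1.62 on 10 low-fat arrays. The groups overlapped almost entirely. In none of the 9 weeks were the diets free of overlap, in either strain. The share of arrays that measured Gstm3 differed between the diets in some weeks. At week 7 in C57 it was 6 of 10 high-fat arrays and 10 of 10 low-fat arrays. The part of these shares in the diet differences was not tested.

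Averaged over the 9 weeks, Gstm3 was lower on the high-fat diet in C57 by a log2 difference of -0.42 ± 0.09 (SE), 1.34-fold, with weekly differences between -0.77 and 0.20. This contrast was known when the gene was chosen and carries no test here. Of 7643 probes, 0.196% passed the threshold in the C57 diet contrast in limma, and nothing about the pair is read from that share. In AJ the difference was -0.25 ± 0.09, with weekly values between -0.48 and -0.05. It did not pass (limma adjusted p = 0.820), and 0.0262% of probes did in that contrast. The C57 difference minus the AJ difference was -0.17 ± 0.13 for Gstm3, which holds the C57 value and is therefore a description too.

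Gsta3 varied more between arrays than Gstm3. Its mean over the 9 weeks was 0.40 ± 0.49 in C57 high-fat and 0.55 ± 0.55 in C57 low-fat livers, and -0.23 ± 0.64 in AJ high-fat and 0.05 ± 0.51 in AJ low-fat livers (SD of 9 weekly means). The order from the highest was C57 low-fat, C57 high-fat, AJ low-fat, AJ high-fat, and each step in it was smaller than the SD of the weekly means on either side. The probe was measured on 287 of the 350 arrays.

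The weekly means of Gsta3 in C57 high-fat livers were -0.42 at week 1, 0.06 at week 3, 0.16 at week 4, 0.22 at week 5, 1.19 at week 6, 0.29 at week 7, 0.82 at week 9, 0.83 at week 10 and 0.45 at week 11. In C57 low-fat livers they were -0.38, -0.11, 0.25, 0.55, 0.51, 1.14, 1.03, 1.17 and 0.77. In AJ high-fat livers they were -0.91, -0.57, -0.68, -0.53, 0.49, -0.52, 0.78, 0.52 and -0.66, and in AJ low-fat livers -0.50, 0.01, -0.03, -0.70, -0.30, 0.17, 0.64, 0.89 and 0.24. Week 1 was the lowest in both C57 sets and in AJ high-fat livers. In AJ low-fat livers week 5 was the lowest. AJ high-fat livers were back at -0.66 in week 11, where the 7 arrays ran from -2.85 to 1.09 with a median of -0.12.

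**Figure D2:**
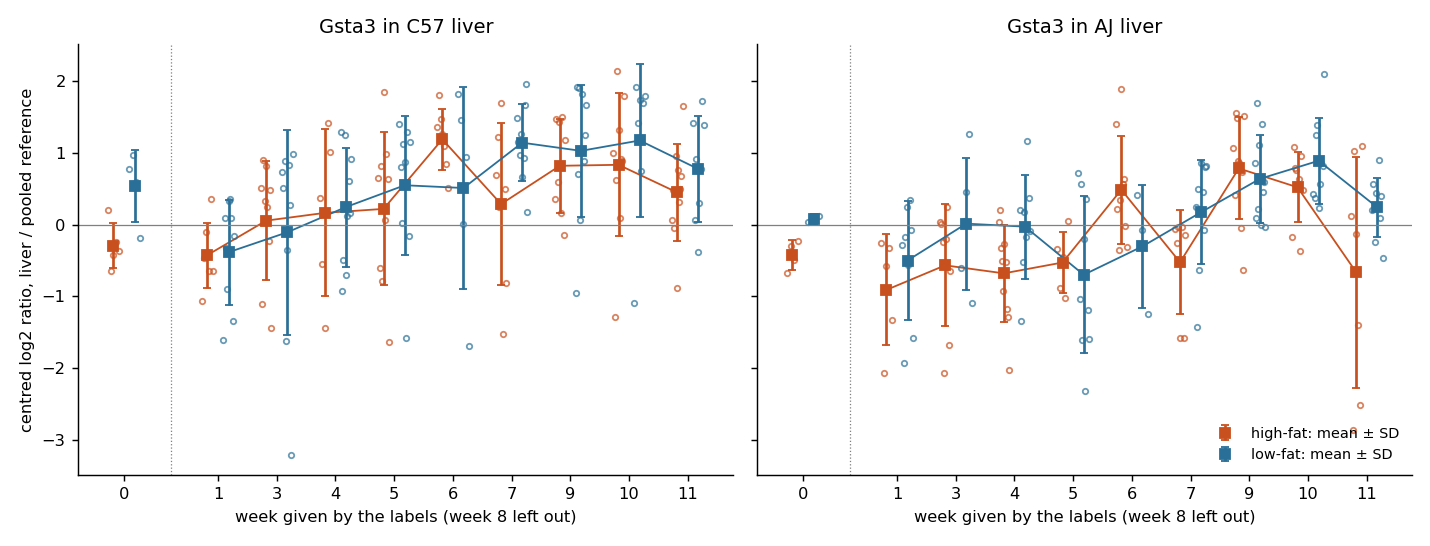
Gsta3 in C57 (left) and AJ livers (right) by week, with high-fat left of low-fat at each week. Open circles are single arrays, squares and bars are the group mean ± SD of the centred log2 ratio, and week 0 stands apart to the left of the dotted line. C57 means lie mostly above AJ means of the same week, and the SD within a group reaches 1.61.

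By diet, Gsta3 differed in C57 by -0.15 ± 0.15 (SE), negative in 7 of 9 weeks, with weekly values between -0.85 and 0.68, again as a description. In AJ the difference was -0.28 ± 0.15, negative in 6 of 9 weeks, and it did not pass (limma adjusted p = 0.931). The C57 difference minus the AJ difference was 0.13 ± 0.21, again with no test.

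**Figure D3:**
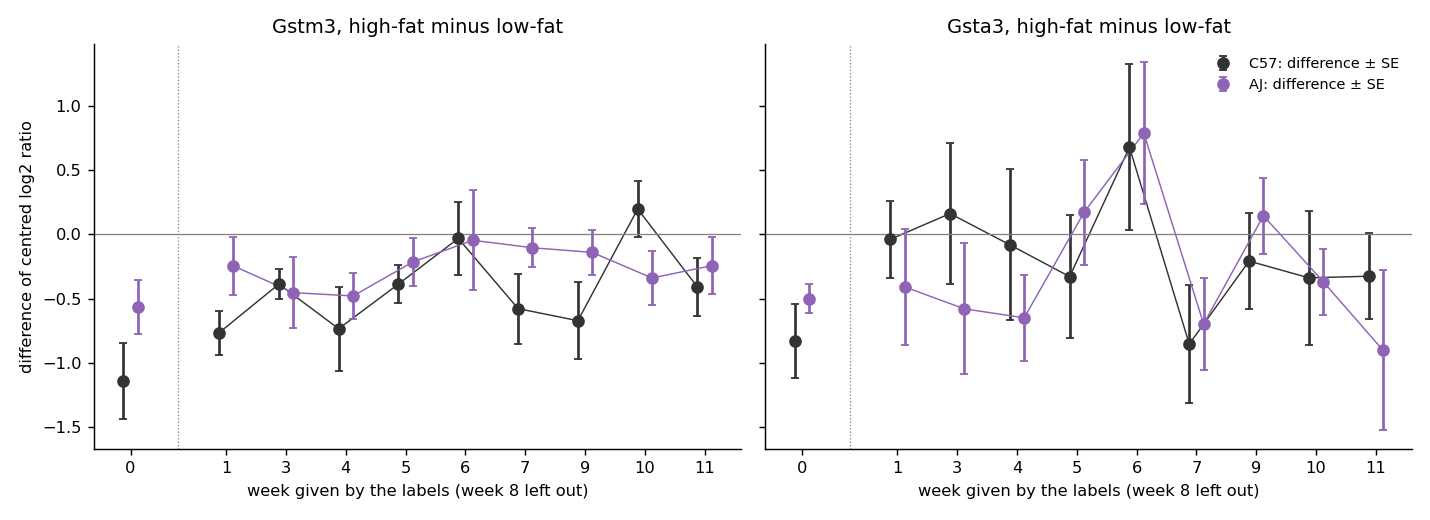
High-fat minus low-fat difference of the centred log2 ratio for Gstm3 (left) and Gsta3 (right) by week, with week 0 apart. Points are differences of group means with their SE from the arrays of the groups. In C57, Gstm3 lies below 0 in each of the 9 weeks after week 0 except week 10, and in AJ in each of the 9, whereas Gsta3 crosses 0 in both strains.

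Gsta3 was higher in C57 than in AJ. On the high-fat diet the difference was 0.63 ± 0.15 (SE), 1.55-fold, positive in 9 of 9 weeks and between 0.04 and 1.11, and it passed the threshold (limma adjusted p = 0.00769). On the low-fat diet it was 0.50 ± 0.15, 1.41-fold, positive in 8 of 9 weeks, and it did not pass (limma adjusted p = 0.0647). At week 4, for example, Gsta3 had -1.44, 0.38 and 1.42 as lowest, median and highest on 5 of 10 C57 high-fat arrays. The other 5 did not measure it. In AJ it had -2.02, -0.51 and 0.21 on 10 of 10 high-fat arrays. Even at week 4 the strains overlapped, as they did in every week. The part of unequal shares of measured arrays in the strain difference was not tested. With the arrays of even sample number alone the high-fat difference was 0.34 and did not pass (limma adjusted p = 0.606). Each split by sample number, here and below, used fewer arrays and a looser probe filter. Fewer arrays can lose a call by themselves. As deviations from group means, Gsta3 averaged 0.11 on 145 arrays of even and -0.11 on 142 arrays of odd sample number, against -0.014 and 0.014 for Gstm3.

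Gstm3 did not differ between the strains past the threshold. Its C57 minus AJ difference was 0.11 ± 0.09 on the high-fat diet (limma adjusted p = 0.621) and 0.28 ± 0.09 on the low-fat diet (limma adjusted p = 0.142), positive in 6 and 8 of 9 weeks. In all, 3.94% of the 7643 probes passed in the strain contrast on the high-fat diet and 2.39% on the low-fat diet. Hepatocyte markers moved with strain too, in both directions. On the high-fat diet Alb (-0.39) and Trf (-0.41) were lower and Fgb (0.38) and Ahsg (0.54) higher in C57 past the threshold, and on the low-fat diet Trf was lower (-0.52). Their part in the Gsta3 result was not tested.

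Both genes stood higher in weeks 9 to 11 than in weeks 1, 3 and 4 in every strain and diet. Of the 8 differences 2 passed the threshold, in C57 high-fat and AJ high-fat livers, where 12.0% and 15.7% of all probes passed. In C57 high-fat livers Gstm3 averaged 0.82 ± 0.35 in the late weeks, against 0.04 ± 0.20 in the early weeks (SD of 3 weekly means). It rose by a log2 difference of 0.77 ± 0.18 (SE), 1.71-fold (limma adjusted p = 0.00545). Without week 10 the difference was 0.60 and did not pass (limma adjusted p = 0.0763), nor did it with odd sample numbers alone, at 0.61 (limma adjusted p = 0.192). With even sample numbers alone it was 1.14 (limma adjusted p = 0.00134). The other Gstm3 differences were 0.44 ± 0.18 in C57 low-fat livers, 0.36 ± 0.18 in AJ high-fat livers and 0.21 ± 0.18 in AJ low-fat livers (limma adjusted p = 0.156, 0.154 and 0.499).

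In AJ high-fat livers Gsta3 averaged 0.21 ± 0.77 in the late weeks, against -0.72 ± 0.17 in the early weeks (SD of 3 weekly means). It rose by 0.93 ± 0.31 (SE), 1.91-fold (limma adjusted p = 0.0430). That call is fragile, since it was lost when week 1, 3, 4, 9 or 10 was left out, with differences of 0.65 to 1.01 and limma adjusted p between 0.0724 and 0.198, and with a looser probe filter (limma adjusted p = 0.0524). With even sample numbers alone it was 1.49 and did not pass either (limma adjusted p = 0.0589). The widest Gsta3 difference was in C57 low-fat livers, which averaged 0.99 ± 0.20 late, against -0.08 ± 0.32 early. At 1.07 ± 0.31, 2.10-fold, it did not pass (limma adjusted p = 0.0542). The differences in C57 high-fat and AJ low-fat livers were 0.77 ± 0.31 and 0.76 ± 0.31 (limma adjusted p = 0.108 and 0.145). Whether the time differences differ between strains or diets was not tested.

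Many probes changed between these periods, 12.0% in C57 high-fat, 3.24% in C57 low-fat, 15.7% in AJ high-fat and 6.11% in AJ low-fat livers. Of the 12 hepatocyte markers, 6, 8, 8 and 7 were higher late and 6, 4, 4 and 5 lower in these sets in that order, with median differences of -0.0021, 0.12, 0.38 and 0.11. The marker Ttr rose past the threshold in all 4 sets, by 0.80, 0.90, 1.23 and 1.10 in the same order, as did Hp in AJ high-fat livers by 0.68, while Apoe fell in C57 high-fat livers by a log2 difference of -1.24. No other hepatocyte marker passed. Of the 4 muscle markers, 0, 0, 1 and 2 were higher late and 4, 4, 3 and 2 lower, and Ckm fell past the threshold in C57 low-fat (-1.20) and AJ high-fat livers (-1.21). Of the 2 kidney markers, Slc34a1 rose in AJ high-fat livers (1.26) and Slc12a1 had -0.29 there, and in each of the other sets 1 was higher and 1 lower, none past the threshold. The share of arrays that measured a probe moved as well. In C57 high-fat livers Gstm3 was measured on 27 of 28 late arrays, against 26 of 30 early arrays. Gsta3 was measured there on 27 of 28 late arrays, against 21 of 30 early arrays, and in C57 low-fat livers on 25 of 29 late arrays, against 27 of 30 early arrays. In AJ livers it was measured on 26 of 30 late arrays, against 23 of 29 early arrays, on the high-fat diet, and on 28 of 28 late arrays, against 21 of 30 early arrays, on the low-fat diet. The part of any of these in the member differences was not tested.

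At week 0 both genes were lower in the groups labelled high-fat. In C57, Gstm3 was at 0.41, -0.02, -0.40, -0.55, -0.66 and -1.20 on the 6 high-fat arrays that measured it, against 1.05, 0.98, 0.68 and 0.23 on 4 low-fat arrays. Of the high-fat arrays 5 were below every low-fat array. In AJ, Gstm3 ran from -0.88 over a median of -0.01 to 0.27 on 8 high-fat arrays, against 0.14, 0.48 and 0.73 on 3 low-fat arrays, and 7 high-fat arrays were below every low-fat array.

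Gsta3 was at 0.20, -0.24, -0.37, -0.42 and -0.65 on 5 C57 high-fat arrays, against 0.97, 0.77, 0.59 and -0.18 on 4 low-fat arrays. In AJ it was at -0.22, -0.30, -0.49 and -0.68 on 4 high-fat arrays, against 0.12 and 0.03 on 2 low-fat arrays. All AJ high-fat values were below both low-fat values, which says little on so few arrays. How many of all probes separate in this way was not counted.

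Each week 0 fit in limma centred its arrays anew over its own probes. In C57 the week 0 diet differences were -1.15 ± 0.29 for Gstm3 and -0.84 ± 0.26 for Gsta3 (SE), given as a description like the other C57 diet values. In AJ that of Gstm3 was -0.56 ± 0.22 and did not pass (limma adjusted p = 0.429). Too few arrays measured Gsta3 in AJ for the fit, and the difference of its means was -0.50. In limma 0% of 6373 probes passed in C57 and 0% of 6227 in AJ, with 368 and 643 at an unadjusted p under 0.05. The C57 minus AJ difference of Gstm3 at week 0 was -0.00087 ± 0.19 (limma adjusted p = 1.00), in a contrast where 1.4% of 5414 probes passed. The week 0 gap in Gstm3 has the same sign as the gap over weeks 1 to 11 and is wider in both strains. Of the 10, 10, 10 and 9 arrays of C57 high-fat, C57 low-fat, AJ high-fat and AJ low-fat livers at week 0, 6, 4, 8 and 3 measured Gstm3 and 5, 4, 4 and 2 measured Gsta3.

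The levels of the genes ran together. Over the 273 arrays of the 9 weeks that measured both, Pearson's r was 0.562 and Spearman's rho 0.613, and without the 2 arrays farthest from the median of Gstm3 r was 0.588. Within a strain and diet r was 0.558 in C57 high-fat (68 arrays), 0.604 in C57 low-fat (74), 0.449 in AJ high-fat (62) and 0.610 in AJ low-fat livers (69). After each array's group mean was taken off, r was 0.451, and over the 36 group means it was 0.726. At week 0 it was 0.783 over 13 arrays. These values are descriptions, since the points share arrays, weeks and the centring of each array.

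**Figure D4:**
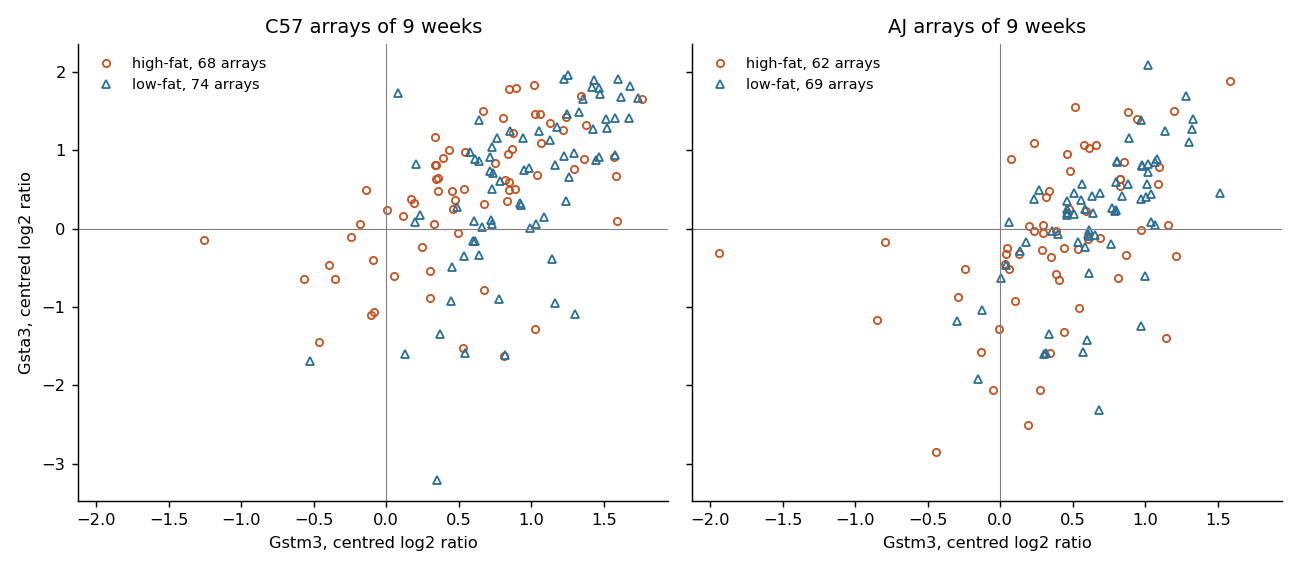
Gstm3 (x axis) against Gsta3 (y axis) on single arrays of the 9 weeks, both as centred log2 ratios, for C57 (left) and AJ (right), with high-fat arrays as circles and low-fat arrays as triangles. The clouds of both diets overlap and tilt upwards, with r between 0.449 and 0.610 in the 4 sets.

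Both genes also followed the hepatocyte markers of the same array. After group means were taken off, r with the mean of the 12 hepatocyte markers was 0.554 for Gstm3 (319 arrays) and 0.491 for Gsta3 (287 arrays). Once a straight line on that mean was taken off both genes, r between them was 0.220 (273 arrays). Over the 36 group means r with the marker mean was 0.08 for Gstm3 and 0.30 for Gsta3. No r of other probes with that mean is given here for comparison. The part of the hepatocyte markers in the correlation of the pair was not tested. With the log2 number of probes measured on the array, r was -0.16 and -0.25.

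Among the 7642 other probes, Gsta3 ranked 6th by likeness to Gstm3, both over the 36 group means and over array deviations from them. Gstm3 ranked 16th and 19th by likeness to Gsta3. The 5 symbols most like Gstm3 over group means were Taf12, Slc6a11, Pbld2, Fam193b and 4930590A17Rik (r of 0.73 to 0.75), against a median r of -0.01 over all probes. Over array deviations they were Nkx2-3, Gdap2, the apolipoprotein gene Apoc4, albumin Alb and the cytochrome P450 gene Cyp2c29 (r of 0.46 to 0.49). The symbols most like Gsta3 over group means were Smpdl3b, Rgn (regucalcin), Cyld, Ago4 and Ppia (r of 0.77 to 0.82). Over array deviations they were Pemt, which makes phosphatidylcholine in hepatocytes, Ppia (cyclophilin A), the proteasome subunit gene Psma3, the ribosomal protein gene Rps16 and Tmed2 (r of 0.55 to 0.62).

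The other genes of a cytosolic glutathione transferase list gave no diet call, in contrasts where few probes did. Of the 29 genes of that list 24 are on the array, and 14 besides the pair were tested. The list also holds Hpgds, Gdap1, Vars and Eef1g, which carry no Gst symbol. None of the 14 passed in either diet contrast in limma, where 0.196% of all probes passed in C57 and 0.0262% in AJ. With so few calls over all probes, none among 14 genes says little about diet. Their median difference was 0.06 in C57 and -0.02 in AJ, against -0.0002 and -0.01 over all probes. The C57 differences ran from -0.07 to 0.36, and the widest were those of Gsto1 (0.36), an omega class enzyme that reduces dehydroascorbate, of Gstm2 (0.32) and of Gdap1 (0.22). In AJ they ran from -0.25 to 0.15, with Gdap1 (-0.25), Gstm5 (-0.24) and Gsto1 (0.15) the widest.

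By strain, Gsta4, the alpha class enzyme known for conjugating the lipid peroxidation product 4-hydroxynonenal, was lower in C57 on the high-fat diet at -0.28 ± 0.07 (limma adjusted p = 0.0178), opposite in sign to Gsta3. No other of the 14 genes besides the pair passed in that contrast, where 3.94% of all probes did. None of the 14 passed on the low-fat diet (2.39% of all probes), where Gsta4 had the widest difference (-0.19).

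Between late and early weeks, Gsto1 rose in C57 high-fat livers by 1.10 ± 0.35 (limma adjusted p = 0.0384) and in AJ high-fat livers by 1.49 ± 0.35 (limma adjusted p = 0.00558). In AJ high-fat livers Gstm1 (0.66), Gsta2 (0.50) and Gstz1 (0.45), which isomerises maleylacetoacetate in tyrosine breakdown, also rose, and the theta class gene Gstt2 fell (-0.64), so that 4 rose and 1 fell of 14, in a contrast where 15.7% of all probes passed. In C57 high-fat livers 1 of the 14 passed, against 12.0% of all probes. In C57 low-fat and AJ low-fat livers none of the 14 passed, against 3.24% and 6.11% of all probes, which says little with 14 genes. The widest values there were those of Gsto1 (1.11 and 1.03), Gdap1 (-0.86 and -0.66), Gstt2 in C57 (-0.54) and Gsta4 in AJ (0.60). The medians of the 14 were -0.03, -0.17, -0.20 and 0.02 in C57 high-fat, C57 low-fat, AJ high-fat and AJ low-fat livers, below the differences of Gstm3 and Gsta3 in each. Of the membrane-bound transferase list only Alox5ap was tested, which carries no transferase symbol. Its late minus early differences were 0.09 to 0.26, none past the threshold.

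**Figure D5:**
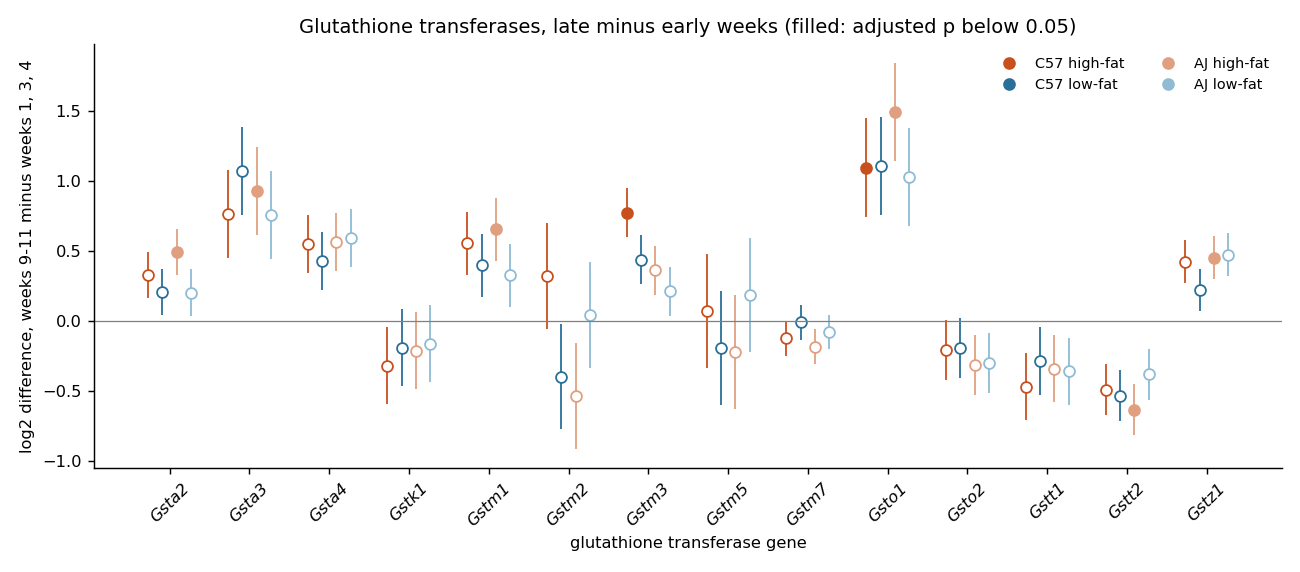
Late minus early log2 difference of each tested gene with a Gst symbol (x axis) in the 4 strain and diet sets. Points are limma estimates with their SE, filled where the adjusted p is below 0.05. Gstm3 passes in C57 high-fat livers, Gsta3 in AJ high-fat livers and Gsto1 in both.

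The genes around glutathione gave no diet call either. Tested were 15 genes of glutathione synthesis and recycling, 11 NRF2-type antioxidant genes and 9 genes of the CAR and PXR type. None passed in a diet contrast, where 0.196% of all probes passed in C57 and 0.0262% in AJ. With so few calls over all probes, their absence in these lists says little about diet. In C57 the widest diet differences were -0.17 for Gpx2, -0.13 for Esd and 0.12 for Hagh in the first list, 0.21 for Txn1, -0.14 for Ugdh and -0.12 for Abcc3 in the second and 0.23 for Cyp2c37, -0.21 for Sult1a1 and 0.12 for Cyp2b9 in the third. In AJ they were 0.35 for Gpx4, -0.31 for Cth and 0.20 for Lancl1, then -0.18 for Cbr1, -0.14 for Abcc3 and -0.10 for Txn1, and then 0.22 for Cyp2b9, -0.11 for Sult1a1 and 0.07 for Cyp3a11.

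Between late and early weeks 3 of the 11 NRF2-type genes rose and 1 fell past the threshold in C57 high-fat livers (12.0% of all probes passed). The counts were 1 and 0 in C57 low-fat (3.24%), 2 and 1 in AJ high-fat (15.7%) and 2 and 0 in AJ low-fat livers (6.11%). Past the threshold or not, 5, 6, 6 and 5 of the 11 were positive and 6, 5, 5 and 6 negative in that order. Thioredoxin Txn1 rose in all 4 sets, by 1.42 in C57 high-fat, 1.70 in C57 low-fat, 1.59 in AJ high-fat and 1.60 in AJ low-fat livers. The peroxiredoxin gene Prdx1 rose in C57 high-fat (0.81), AJ high-fat (1.01) and AJ low-fat livers (0.73). The carbonyl reductase gene Cbr3 rose (1.10) in C57 high-fat livers, where the glutathione reductase gene Gsr (-0.77) and the P450 gene Cyp2b13 (-0.76) fell. The sulfiredoxin gene Srxn1 fell in AJ high-fat livers (-0.96). Gpx3, which encodes a secreted glutathione peroxidase, fell in C57 low-fat (-1.05), AJ high-fat (-0.94) and AJ low-fat livers (-0.90). Cyp2c29 rose in AJ low-fat livers (1.02). Of the 15 genes of synthesis and recycling 1 fell past the threshold in each set. Among the 9 CAR and PXR type genes 1 fell in C57 high-fat and 1 rose in AJ low-fat livers. By strain, Chac2 (0.48) and Cyp2c37 (0.44) were higher in C57 than in AJ on the high-fat diet, and Cyp2c29 on the low-fat diet (0.38). Over all probes 3.94% and 2.39% passed in these contrasts.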

How the data were processed

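Per the labels, liver total RNA (Cy5) and a pooled reference RNA (Cy3) were hybridised to spotted 2-colour arrays. The authors deposited linear ratios in which the mean of every array is 1. That scaling and the direction, liver over reference, were read from the values, and the image analysis, background subtraction, spot filter and normalization are not given in the sources used here. The log2 of each positive deposited ratio was taken with no pseudocount. Values below 0 (0.251% of those measured) or equal to 0 (0.271%) counted as not measured. Each array was centred on its median over the probes tested, which had to be present on 70% of arrays or more and on 3 or more in each group.

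Over weeks 1 to 11 without week 8, limma 3.58.1 (R 4.3.3) was fitted to 1 mean per strain, diet and week, with 4 strain and diet levels and a term per week. The week is the unit. The period contrast used the same means. Week 0 was fitted on single arrays. P-values were adjusted by the Benjamini-Hochberg method across the tested probes of a contrast, with a threshold of 0.05. The code was tested on simulated data.

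The members and the gene lists were chosen with earlier results of these data known. The naming rule takes both members, every gene of the fixed lists past the threshold or else the 3 with the widest difference, and the 5 symbols most like each member. Symbols came from the array's gene table, and 14416 probes matched the GRCm38.p6 gene table by Entrez identifier. Alternatives were no centring, quantile normalization, group medians, single arrays, a block for the sample number, other filters, the left-out arrays put back and each week left out. Odd and even sample numbers apart were added after the data had been seen, because pairs of arrays of a group had a median r of -0.08 where both numbers were odd or both even (681 pairs), against -0.19 for mixed pairs (852), each as deviations from the group mean. The odd and even splits used the looser filter, 50% of arrays and 1 array of each group, so a group mean could rest on 1 array. Equal sample numbers gave no sign of pairing. Same-numbered high-fat and low-fat arrays of a strain and week had a median r of 0.006 (159 pairs), against -0.002 for other pairs (1541). The numbers are offset between the diets in some groups, and pairing by position was not examined.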

Additional observations from a re-analysis of the deposited data

Results flagged for a closer look

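On 6 arrays a member lay far from the rest of its group, of 77 groups of 4 to 10 arrays examined. Chance alone marks about 5% of groups in this way. All 6 values were the lowest of their group. Gstm3 was at -1.94 in AJ high-fat week 6 sample 60, where the others of the group ran from 0.13 to 1.59. It was at -0.79 in AJ high-fat week 10 sample 91 (others from 0.34 to 1.10), at -0.54 in AJ low-fat week 6 sample 56 (others from 0.63 to 1.12), at -1.26 in C57 high-fat week 9 sample 87 (others from 0.12 to 1.24) and at -0.53 in C57 low-fat week 6 sample 60 (others from 0.99 to 1.68). Gsta3 was at -1.09 in C57 low-fat week 10 sample 91, where the others ran from 0.75 to 1.91.

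The mean of the hepatocyte markers was also the lowest of its group on 3 of these arrays, at 0.02 in C57 low-fat week 6 sample 60 (others from 1.26 to 1.99), at 0.12 in C57 high-fat week 9 sample 87 (others from 0.19 to 1.39) and at 0.82 in AJ high-fat week 6 sample 60 (others from 0.84 to 1.86). Gsta3 was the lowest of its group too, at -1.69 and -0.14, on the first and second of these arrays. On the other 3 arrays the hepatocyte mean lay within the range of the group. The part of the hepatocyte markers in these low values was not tested.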

How the results depend on the processing

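Of 349 values recomputed for the members under other settings, 310 were counted as kept and 4 reversed. Kept means the same direction and the same side of the threshold. For the C57 diet differences over the 9 weeks and the correlation it means a move of less than 1 SD. That SD was 0.32 for Gstm3 and 0.42 for Gsta3 by diet, wide beside differences of -0.42 and -0.15, so the count is lenient there. The other values described without a test were counted by their side of the threshold. The reversals were of the week 0 strain difference of Gstm3, at 0.039 with no centring and 0.0054 with a looser filter, and the difference of the diet differences of Gsta3, at -0.15 with group medians and -0.15 with even sample numbers. The diet difference of Gstm3 ran from -0.50 to -0.35 in C57 over 20 settings. These settings rework the values that the choice of the gene rested on and are no support for it. In AJ the Gstm3 diet difference ran from -0.36 to -0.19 and never passed (limma adjusted p from 0.0870 to 1.00). The diet difference of Gsta3 in C57 ran from -0.46 to -0.06. The Gsta3 strain difference on the low-fat diet passed at 0.53 with no centring, 0.50 with quantile normalization, 0.72 with group medians, 0.50 with single arrays and 0.55 with unlike arrays kept. Leaving out a week moved it between 0.41 and 0.58, and it passed without week 3. On the high-fat diet it was 0.34 and did not pass with even sample numbers. The Gstm3 strain difference on the low-fat diet passed at 0.28 with single arrays and, when a week was left out, ran from 0.24 to 0.36 and passed without week 3. With single arrays as replicates the late minus early differences of Gstm3 in C57 low-fat (0.44) and AJ high-fat livers (0.36) and of Gsta3 in C57 high-fat (0.77), C57 low-fat (1.07) and AJ low-fat livers (0.76) also passed. The block for the sample number, although no pairing by number was seen, left these at 0.44, 0.36, 0.77, 1.07 and 0.76. It left the strain differences at 0.28 for Gstm3 and 0.50 for Gsta3, and changed no call that single arrays made. Gsta3 in C57 low-fat livers also passed with quantile normalization (1.02), and leaving out a week moved it between 0.92 and 1.23, with calls without week 6 and without week 11. Gsta3 in C57 high-fat livers was 1.82 with even sample numbers and passed there. Gsta3 in AJ high-fat livers did not pass with the looser filter (0.92), with even sample numbers (1.49) or without any of weeks 1, 3, 4, 9 and 10 (0.65 to 1.37 over all weeks left out). Gstm3 in C57 high-fat livers did not pass with odd sample numbers (0.61) or without week 10 (0.60 to 0.95 over all weeks left out). The correlation of the pair over arrays was 0.464 with quantile normalization. The causes were not tested. Over all probes, counts past the threshold depended strongly on the setting, from 1 to 139 for the C57 diet contrast, 0 to 33 for AJ diet, 0 to 3 for their difference, 55 to 852 and 36 to 554 for strain on the high-fat and the low-fat diet, and for late minus early from 95 to 2948 in C57 high-fat, 23 to 2240 in C57 low-fat, 121 to 3513 in AJ high-fat and 20 to 2662 in AJ low-fat livers. These counts cover unlike numbers of probes, such as 2869 with all 10 weeks and 5556 with odd sample numbers, against 7643 in the main fit. Most of the lowest counts came from those 2 settings. The highest came from single arrays as replicates, with or without the block, where the week is not the unit. Gsta3 could not be fitted with the stricter filter, with all 10 weeks or with odd sample numbers, and a comparison of probes of the same gene was not possible with 1 probe each. No array of week 0 was unlike the others, so leaving such arrays out changes nothing there.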
